A study of Mus musculus with 3 samples.

Results

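The mitochondrial genome was examined through its poly(A) sites in F121-9, a line of mouse embryonic stem (ES) cells that is a hybrid between the CAST and 129 strains. All sites that the deposited lists place on chrM were taken, on both strands, which gave 254 of 178115 listed sites (134 on the + strand and 120 on the − strand). PAS-seq, done here with the QuantSeq protocol, primes on poly(A) tails, so most reads are meant to mark where a tail was joined to the transcript. The study holds 1 group of 3 libraries, each from cells at passage 14 and from 500 ng of RNA, with no treatment or second genotype. The labels call them biological replicates without naming separate cultures, so their spread may be in part technical. Replicate 3 had 0 mitochondrial reads among 13040620 listed reads, and it also had 0 reads on the X and Y chromosomes, where replicates 1 and 2 had reads. The reason was not tested. The values below are from replicates 1 and 2, with 10147672 and 13513327 listed reads. Coordinates are mm10, whose chrM has the 16299 bases of the RefSeq mouse sequence, and genes are those of GENCODE M21. Which parental strain gave these cells their mitochondrial DNA is not given in the sources used here.

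Mitochondrial DNA is a small circle that is transcribed from both strands into long precursor RNAs. In these precursors, tRNAs sit between most of the other genes, and enzymes that cut at both ends of each tRNA release mRNAs and rRNAs in a process known as tRNA punctuation. A mitochondrial poly(A) polymerase, encoded by Mtpap, then adds short tails, without the AATAAA signal that guides nuclear cleavage. In some mRNAs the tail also supplies the last bases of the stop codon. The RefSeq annotation marks this for mt-Nd4, mt-Cytb and mt-Co3, whose coding lengths of 1378, 1144 and 784 bases leave 1 base over after whole codons.

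A few sites carried most of the reads. Their surroundings are shown first, because where they lie relative to tRNA genes runs through all the results. Each sequence has the 30 bases ending at the named position of the site and the 30 bases after it, read on the strand of the site from the RefSeq GRCm38 sequence. Capitals mark the bases of a tRNA gene on the same strand, except in the last sequence, where they mark the conserved sequence block CSB3 of the control region.
chrM:11536-11595, + strand, 3′ end of mt-Nd4 and start of mt-Th: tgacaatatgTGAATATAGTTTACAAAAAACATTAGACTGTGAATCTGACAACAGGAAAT
chrM:15285-15344, + strand, 3′ end of mt-Cytb and start of mt-Tt: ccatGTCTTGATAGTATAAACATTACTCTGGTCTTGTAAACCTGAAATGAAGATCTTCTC
chrM:2646-2705, + strand, 3′ end of mt-Rnr2 and start of mt-Tl1: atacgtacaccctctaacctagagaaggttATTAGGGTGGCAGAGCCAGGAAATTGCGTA
chrM:3815-3874, + strand, start of mt-Tm: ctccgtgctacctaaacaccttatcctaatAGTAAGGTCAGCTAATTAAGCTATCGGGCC
chrM:1064-1123, + strand, end of mt-Tv: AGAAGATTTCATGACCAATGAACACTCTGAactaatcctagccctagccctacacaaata
chrM:15393-15452, − strand, start of mt-Tp: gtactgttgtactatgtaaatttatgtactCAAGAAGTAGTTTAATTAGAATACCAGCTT
chrM:15326-15385, − strand, end of mt-Tp: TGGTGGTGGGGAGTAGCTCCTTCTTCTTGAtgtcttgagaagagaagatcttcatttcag
chrM:16091-16150, − strand, control region: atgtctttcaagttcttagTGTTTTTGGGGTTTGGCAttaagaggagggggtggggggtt

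The site with most mitochondrial reads, named at position 11565 of the + strand, had 26825 RPM (a read count scaled to the size of the library) in replicate 1 and 20420 RPM in replicate 2. It held 63.6% and 56.3% of mitochondrial reads and ranked 2 among all 178115 sites by mean RPM over these libraries. The named position lies 21 bases past the annotated end of mt-Nd4, which encodes a subunit of respiratory complex I, and 20 bases into the tRNA gene mt-Th. The first sequence above shows that it is the last base of a genomic run of 6 A. The deposited lists also give an interval for each site, and the interval of this one, bases 11532 to 11566, covers the end of mt-Nd4 at base 11544. The position where the tail was joined can therefore not be read to the base from these files.

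The site that followed, named at 15314 on the + strand, had 6098 and 7512 RPM and ranked 3 among all listed sites. It lies 26 bases past the end of mt-Cytb, the cytochrome b gene of complex III, and within mt-Tt, and its interval of bases 15277 to 15321 again covers the mRNA end at base 15288. Both libraries gave these sites the same order, but replicate 1 was higher at the mt-Nd4 site and replicate 2 at the mt-Cytb site. Together they held 78.0% and 77.1% of mitochondrial reads. The remaining sites had 9287 and 8317 RPM in all, and 71 of the 254 sites had a mean under 1 RPM.

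The site at 2675 on the + strand, with an interval of bases 2642 to 2692, is named exactly at an RNA end. This is the last base of mt-Rnr2, the large rRNA of the mitochondrial ribosome, and the next base starts mt-Tl1. The site had 1265 and 1416 RPM. The following 5 sites by mean RPM all lay inside mt-Rnr2. They were 2012 (486 and 401 RPM), 1694 (373 and 293 RPM), 1202 (263 and 365 RPM), 2344 (288 and 219 RPM) and 1855 (288 and 199 RPM). Of these, only the site at 1202 was higher in replicate 2.

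Reads lay almost entirely on the strand that carries most genes. The + strand, with 12 of the 13 mRNAs, both rRNAs and 14 tRNAs, had 41133 and 35456 RPM, and the − strand, with mt-Nd6 and 8 tRNAs, had 1077 and 793 RPM. The + strand share was 97.6% ± 0.259 of mitochondrial reads (SD, n = 2), and 89.4% without the 2 most-read sites. In bulk RNA, fewer cells with a transcript and less RNA per cell cannot be told apart.

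**Figure D1:**
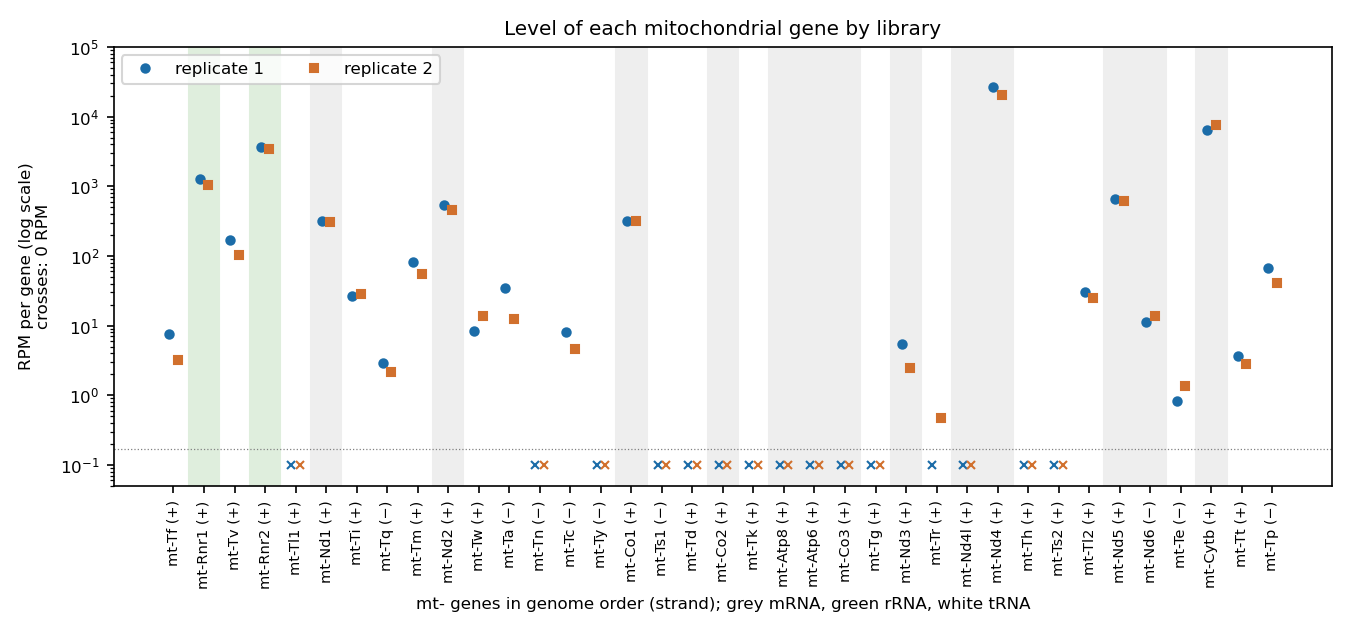
RPM of each of the 37 mt- genes in replicate 1 (circles) and replicate 2 (squares), on a log axis, with genes in genome order and a cross where no read was listed. A site whose interval covers an mRNA or rRNA end counts for that gene here, so mt-Nd4 is highest at 26880 and 20473 RPM, and mt-Co2, mt-Atp8, mt-Atp6, mt-Co3 and mt-Nd4l are at 0.

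Gene levels depended on which part of a site was used to place it. With the named position, as planned, the 2 most-read sites counted for the tRNA genes, so that mt-Th had 26825 and 20420 RPM and mt-Tt had 6102 and 7514 RPM. With the interval, a rule added after the data were seen, mt-Nd4 had 26880 and 20473 RPM, against 54.3 and 52.3 RPM with the named position. For mt-Cytb the interval gave 6357 and 7708 RPM, against 259 and 196 RPM. No other mRNA or rRNA level changed between these rules. The interval rule looked only at mRNA and rRNA ends, so a site whose interval covers only a tRNA end was still placed by its named position. Values are counts of 3′ ends and are not divided by gene length.

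Among the 7 complex I genes, which encode membrane subunits of NADH dehydrogenase, mt-Nd5, mt-Nd2, mt-Nd1 and mt-Nd6 had 8 sites or more inside the gene. mt-Nd5 had 654 and 604 RPM over 26 sites, with its leading site at 11831 (79.9 and 80.9 RPM) holding 12.8% ± 0.830 of the gene's reads. mt-Nd2 had 533 and 450 RPM over 14 sites. Its leading site at 3928, with 270 and 179 RPM, lay just inside the gene, 15 bases after the end of mt-Tm. The interval of this site, bases 3901 to 3966, covers that end at base 3913. Without the site, mt-Nd2 had 263 and 271 RPM. In the test of gene ends below, the site counted for mt-Tm. mt-Nd1 had 313 and 309 RPM over 8 sites, led by 3546 (72.3 and 72.2 RPM), which is 161 bases before its end. Of these 3 leading sites, the one at 3928 differed most between the replicates.

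Within mt-Nd4, away from its end, 3 sites had 54.3 and 52.3 RPM, led by 11141 with 28.1 and 31.6 RPM. mt-Nd3 had 5.41 and 2.49 RPM over 3 sites, the highest of them at 9549 with 3.43 and 0 RPM. mt-Nd4l had no listed site. mt-Nd6, the only mRNA gene of the − strand, had 11.3 and 13.7 RPM over 11 sites, and no interval covered its end. Its leading site at 13957 had 1.35 and 2.42 RPM. With sites of fewer than 10 reads in either library left out, mt-Nd3 averaged 1.63 RPM in place of 3.95 and mt-Nd6 7.43 RPM in place of 12.5. Opposite mt-Nd6, 5 sites of the + strand that lie in no annotated gene of that strand, between mt-Nd5 and mt-Cytb, had 307 and 299 RPM. This was more than mt-Nd6 itself in both libraries. These sites follow the annotated end of mt-Nd5 but are not counted in its level. Whether they belong to RNA that runs on from mt-Nd5 was not tested.

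Of the 3 complex IV genes, which encode the catalytic core of cytochrome c oxidase, mt-Co1 had 314 and 317 RPM over 6 sites and mt-Co2 and mt-Co3 had no listed site. The leading mt-Co1 site at 5942 had 153 and 153 RPM and lay 930 bases before the gene's end. The 2 complex V genes, mt-Atp6 and mt-Atp8 of the ATP synthase, had no listed site either. Inside mt-Cytb, 8 sites besides the one at its end had 259 and 196 RPM, led by 15051 with 80.9 and 57.7 RPM. Thus 8 of the 13 mRNA genes had a listed site, and 7 had a mean of at least 10 RPM.

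The rRNA genes were covered by sites along their length. mt-Rnr2 had 3651 and 3449 RPM over 21 sites, of which its end held 34.6% and 41.1%. mt-Rnr1, the small rRNA, had 1283 and 1050 RPM over 16 sites, and its leading site at 416 (193 and 136 RPM) lay 608 bases before the end. The next site of that gene, at 668, had 156 and 163 RPM. Site density was 16.8 per kb in mt-Rnr1 and 13.3 per kb in mt-Rnr2. Among mRNA genes it was 14.3 per kb in mt-Nd5, 13.5 in mt-Nd2, 8.36 in mt-Nd1 and 3.88 in mt-Co1. It was 7.87 per kb in mt-Cytb and 2.90 in mt-Nd4, counting the sites at their ends. The highest of these densities was 21.2 per kb in mt-Nd6, at its low level, so density did not follow level.

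Of the 22 tRNA genes, which also mark the cutting points, 14 had a listed site by the named position and 9 averaged 10 RPM or more. Apart from mt-Th and mt-Tt, these were mt-Tv with 168 and 102 RPM, mt-Tm with 81.1 and 55.9 RPM, mt-Tp with 65.9 and 41.2 RPM and mt-Tl2 with 30.8 and 25.04 RPM. mt-Ti had 26.7 and 27.9 RPM, mt-Ta had 35.0 and 12.4 RPM, and mt-Tw had 8.39 and 13.6 RPM. mt-Tf, mt-Tc, mt-Tq, mt-Te and mt-Tr were listed below 10 RPM. For mt-Tq this depended on the distance allowed past its end. It had 2.89 and 2.15 RPM with 10 bases, but 58.2 and 56.5 RPM with 50 bases. The difference is the site at 3751 on the − strand (55.3 and 54.3 RPM), 21 bases past the end of mt-Tq. The other 8 (mt-Tl1, mt-Tn, mt-Ty, mt-Ts1, mt-Td, mt-Tk, mt-Tg and mt-Ts2) had no site counted for them. mt-Ts2 ends at base 11671, where mt-Tl2 starts, and the site at 11672 (16.1 and 8.89 RPM), 1 base past its end, counted for mt-Tl2, which contains it.

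How reads at the annotated end of a gene compare with reads elsewhere in it was tested with limma, a linear model with a spread shared over genes, for 9702 genes in replicates 1 and 2. A gene was called when sites within 25 bases of an annotated end differed at least 2-fold from its other exonic sites, on the log2(RPM + 0.05) scale, at an adjusted p under 0.05. Over all genes, 62.4% were called towards the end and 16.4% towards the body, with a median log2 ratio of 3.93. Of 10 mt- mRNA and rRNA genes tested, 1 was called towards the end and 7 towards the body, with a median of -6.51.

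The gene called towards its end was mt-Nd4, at a log2 ratio of 8.78 ± 0.36 (SE; limma adjusted p = 0.00344, positive in 2 of 2 libraries). mt-Rnr1, with 64.2 and 52.6 RPM near its end and 1218 and 997 RPM in its body, had -4.24 ± 0.35 (limma adjusted p = 0.00589). mt-Nd5 had 1.35 and 2.09 RPM near its end, against 653 and 602 RPM in the body (log2 ratio -8.50, limma adjusted p = 0.00344). mt-Nd6 had 1.80 and 1.95 RPM near its end, against 9.47 and 11.7 RPM in the body (log2 ratio -2.46, limma adjusted p = 0.0157). mt-Nd1, mt-Nd2, mt-Co1 and mt-Cytb had 0 RPM within 25 bases of their ends in both libraries, so their ratios rest on the added 0.05 RPM. The annotated end of each mRNA gene is the end of its coding sequence. On the same strand the next gene starts 579 bases after mt-Nd5, 69 after mt-Co1 and 6613 after mt-Nd6. A site more than 25 bases past the annotated end counts for neither side of the ratio. The end of mt-Co1 also lies in a stretch of 3131 bases with no listed site.

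mt-Rnr2 was not called: it had 1265 and 1416 RPM near its end and 2387 and 2032 RPM in its body (log2 ratio -0.72 ± 0.37 SE, limma adjusted p = 0.174). mt-Nd3, at its low level, was not called either (log2 ratio -4.53, limma adjusted p = 0.0721), but was called towards the body with 0.5 RPM added in place of 0.05 RPM (log2 ratio -2.59, limma adjusted p = 0.0179). The distance decided the call of mt-Nd4 and mt-Cytb. Within 50 bases mt-Cytb was called towards its end (log2 ratio 4.91, limma adjusted p = 0.00642), because its leading site lies 26 bases past it. Within 10 bases mt-Nd4 was called towards the body (log2 ratio -10.06, limma adjusted p = 0.00306). tRNA genes are little longer than these windows, so the ratio says little about them and is not given.

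**Figure D2:**
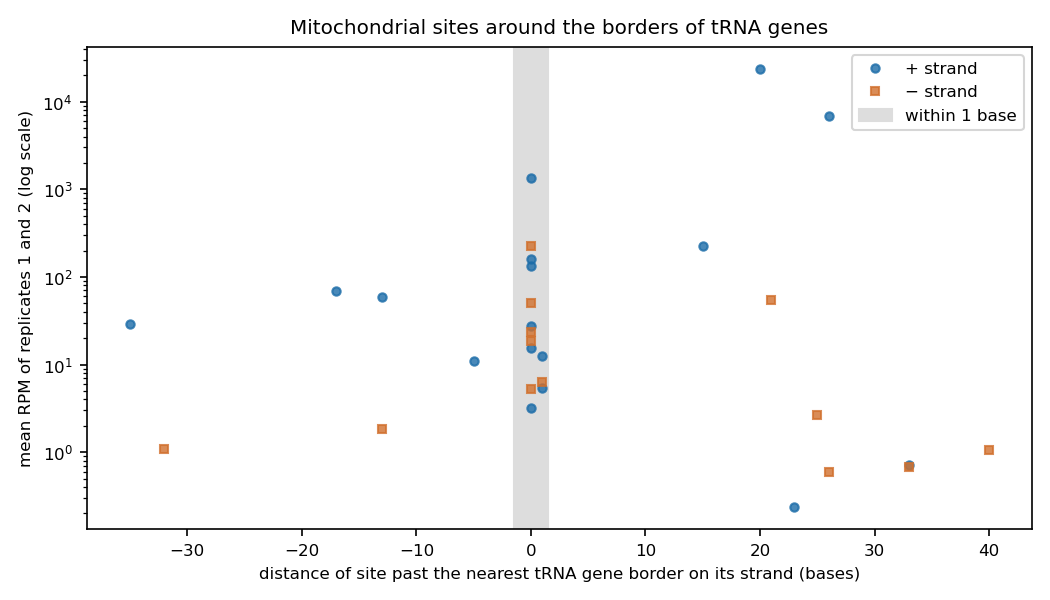
Mean RPM of replicates 1 and 2 (log axis) of mitochondrial sites against their distance in bases past the nearest border of a tRNA gene on their strand, for sites within 40 bases, with + strand sites as circles and − strand sites as squares. In the grey band, 14 sites lie within 1 base of a border, while the 2 most-read sites lie 20 and 26 bases past one.

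Away from the 2 most-read sites, some sites lay on the borders of tRNA genes, going by their named positions. For each tRNA gene, its last base and the base before its first were taken as borders, a measure added after the data were seen. Of the 254 sites, 14 (5.51%) lay within 1 base of a border on their strand, 11 of them exactly on it, while 0.383% of all positions lie that close. These sites had 2009 and 2045 RPM, and 23.1% ± 2.09 of mitochondrial reads without the 2 most-read sites (SD, n = 2). The end of mt-Rnr2 gave most of these reads. Without it, the other 13 border sites had 745 and 628 RPM, or 9.19% ± 0.123 of the reads left. Widening the distance to 3 bases added no site.

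Beside the end of mt-Rnr2, the border sites with most reads were on both strands. The site at 15423 on the − strand, the base before mt-Tp as its sequence above shows, had 244 and 201 RPM. On the + strand, 3844 is the base before mt-Tm, and it had 132 and 191 RPM, while 1093 is the last base of mt-Tv, with 166 and 102 RPM. The last base of mt-Tp, 15356 on the − strand, had 62.5 and 39.3 RPM. The last bases of mt-Ti (3774, with 26.7 and 27.9 RPM), mt-Ta (5018, with 35.0 and 12.4 RPM) and mt-Tl2 (11741, with 14.7 and 16.2 RPM) were also sites. The site at 14140 on the − strand, the base before mt-Te, had 21.7 and 15.5 RPM. Both kinds of border, before a tRNA and at its last base, were thus represented.

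On the − strand, most reads lay in the control region, the non-coding stretch (bases 15423 to 16299) from which transcription starts. Its 10 − strand sites had 758 and 555 RPM, or 70.2% ± 0.259 of − strand reads (SD, n = 2), against 167 and 143 RPM at the 90 sites that lay only opposite a gene. Besides 15423, the leading sites were 16121 with 201 and 133 RPM, which lies in CSB3, a block conserved among mammals, and 16013 with 161 and 131 RPM, between CSB1 and mt-Tp. Further along were 15957 (54.2 and 29.96 RPM), 15912 (48.4 and 33.5 RPM) and 15848 (34.3 and 20.4 RPM). Each of these 6 sites was higher in replicate 1. On the + strand, the control region had 352 and 352 RPM at 8 sites, led by 15437 with 215 and 213 RPM.

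Reads on the − strand opposite the protein-coding and rRNA genes were few. The 29 sites opposite mt-Nd5 had 30.7 and 15.8 RPM, the 19 opposite mt-Cytb had 34.7 and 8.68 RPM and the 12 opposite mt-Nd2 had 8.66 and 5.05 RPM. Opposite the rRNA genes, 3 sites at mt-Rnr1 had 0.722 and 1.62 RPM and 2 at mt-Rnr2 had 0 and 0.202 RPM.

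Of the 5 mRNA genes without a site, 4 lay side by side. Between the sites at 6369 and 9501 there were 3131 bases with no listed site on either strand, a stretch that holds the end of mt-Co1 and all of mt-Co2, mt-Atp8, mt-Atp6 and mt-Co3. Nuclear chromosomes carry copies of mitochondrial DNA, and the longest here, on chromosome 1 at bases 24611535 to 24616188, matches bases 6390 to 11042 of chrM at 99.936% identity. Of the 7 mRNA genes whose 3′ end lies in that stretch, 2 had a listed site (mt-Co1, whose 6 sites all lie before the copied stretch, and mt-Nd3). All 6 mRNA genes that end outside it had one. Their median was 269.6 RPM by the named position and 560 RPM by the interval rule.

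Over all positions of chrM, in a measure added after the data were seen, few sites lay where a long exact copy exists. Copies were sought in the reference sequence only, and those of the CAST and 129 strains may differ. At 29.3% of positions, counted on both strands, the 100 bases ending there have an exact nuclear copy, but 2 of 254 sites (0.787%) lay at such positions. That is 0.209 sites per kb at positions with such a copy, against 10.9 per kb at the others. RPM per kb was 6.79 and 5.59 with a copy, against 400 and 359 at the others without the 2 most-read sites. Most of these positions lie in the stretch copied on chromosome 1, and there all 6 listed sites lay among the 6.49% of positions without such a copy. Outside that stretch, 3.68% of positions had one, with 2.34 sites per kb, against 10.96 per kb at the others. With 150 bases, 26.5% of positions and 0 of 254 sites had a copy. With 50 bases, 35.5% of positions and 18 sites had one, among them the most-read site at 11565, which lies in an exact copy of 129 bases on chromosome 2.

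At copies that were shorter or less exact, mitochondrial sites were listed with many reads. The 2 sites with an exact copy of 100 bases were 1775 in mt-Rnr2 (60.9 and 51.7 RPM) and 5140 (3.97 and 1.75 RPM). A copy on chromosome 12 matches bases 15675 to 16039 at 99.726%, and the 7 mitochondrial sites there had 312 and 225 RPM. Of these, 16013 (161 and 131 RPM) had an exact copy of only 27 bases and 15912 (48.4 and 33.5 RPM) of 5 bases. The others had exact copies of 69 to 99 bases. A copy of 3260 bases on chromosome 2, at 97.362%, covers 29 mitochondrial sites with 574 and 561 RPM. At the listed nuclear sites inside the chromosome 1 copy, reads were few, with 3.70, 8.62 and 14.1 RPM in replicates 1, 2 and 3. How reads that match several places were treated is not given in the sources used here, so the part of nuclear copies in the missing sites was not tested. Levels of mt-Co1, mt-Co2, mt-Atp8, mt-Atp6, mt-Co3, mt-Nd3 and mt-Nd4l are uncertain for this reason.

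**Figure D3:**
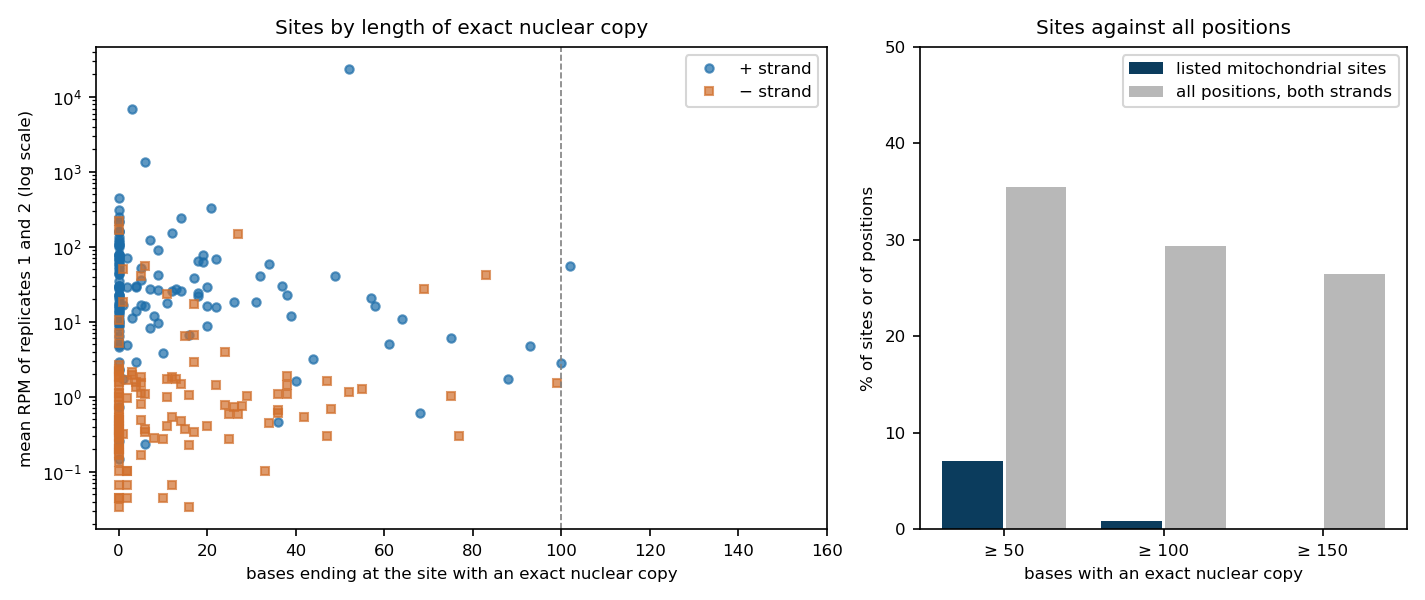
Left, mean RPM of replicates 1 and 2 (log axis) of each mitochondrial site against the number of bases ending at the site that have an exact copy on a nuclear chromosome, with the dashed line at 100 bases. Right, the share of listed sites (dark bars) beside the share of all positions of both strands (grey bars) with an exact copy of at least 50, 100 or 150 bases, where 0.787% of sites and 29.3% of positions reach 100 bases.

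Signals upstream of mitochondrial sites were set beside those of autosomal sites. AATAAA, the main signal for nuclear cleavage, was searched with 17 variants in the 40 bases upstream of each site, on the strand of the site. It stood upstream of 5.20% ± 0.518 of mitochondrial reads, against 61.7% ± 1.06 of autosomal reads (SD, n = 2 each), with both libraries low in the mitochondrial set and high in the autosomal set. Without the 2 most-read sites the mitochondrial share was 23.1%, of which most lay at the end of mt-Rnr2, where AATAAA ends 34 bases before the site. Over sites, each counted once, the shares were 7.09% of mitochondrial sites and 27.1% of autosomal sites. In a control window that starts 100 bases downstream, the signal stood at 3.94% of mitochondrial sites and 3.32% of autosomal sites.

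The 2 most-read sites had other hexamers. Upstream of 11565 stood AATATA, ending 12 bases before the site, and ATTACA, and upstream of 15314 stood TATAAA, ending 10 bases before it, and ATTATA. Therefore 86.7% ± 0.486 of mitochondrial reads had a variant other than AATAAA and ATTAAA, against 11.3% ± 0.0841 of autosomal reads. Without the 2 most-read sites the mitochondrial share was 40.8%. Over sites, each counted once, such a variant stood upstream of 31.9% of mitochondrial and 19.8% of autosomal sites. In the control window these shares were 29.1% and 17.6%, close to those upstream. None of the 18 hexamers stood upstream of 138 of the 254 sites (54.3%), against 45.1% of autosomal sites. A match is only a description of these letters, and its link to base composition was not tested. The + strand holds 34.5% A. In the 40 bases upstream, A made up 30.8% at mitochondrial sites of both strands and 33.4% at autosomal sites.

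Priming of the library on A-rich RNA can also give reads away from a tail. A site was called A-rich when at least 12 of the 20 bases after it were A, or 6 A followed each other, and 5 of 254 mitochondrial sites (1.97%) were, against 11.8% of autosomal sites. These shares are not matched for reads per site. Where replicates 1 and 2 each had 10 reads or more, 2.44% of 164 mitochondrial and 5.63% of 23212 autosomal sites were A-rich. A looser rule, with 10 A or a run of 5, gave 9.76% and 11.4% of these better-read sites. The A-rich sites held 0.204% ± 0.0564 of mitochondrial reads, against 1.73% ± 0.150 of autosomal reads (SD, n = 2 each). The run of 6 A at 11565 lies before the named position and is not counted by either rule. Its part in the reads of that site was not tested.

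**Figure D4:**
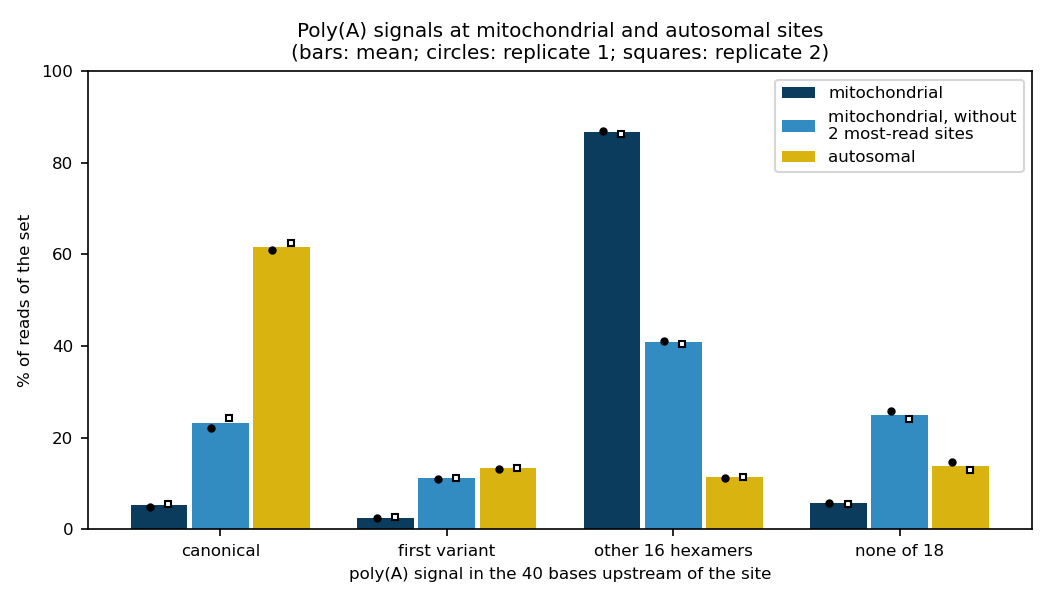
Percent of reads with each kind of poly(A) signal in the 40 bases upstream of the site, for mitochondrial sites, mitochondrial sites without the 2 most-read ones and autosomal sites (bars: mean; circles and squares: replicates 1 and 2). The main signal, labelled canonical, precedes 5.20% of mitochondrial reads and 61.7% of autosomal reads.

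Most mitochondrial sites were read in both libraries. Of 254 sites, 220 had reads in replicate 1 and 228 in replicate 2, and the 194 with reads in both held 99.9% of mitochondrial reads in each. Of autosomal sites read in either library, 30.5% were read in both, against 76.4% of mitochondrial sites. These shares are not matched for reads per site. At least 10 reads in both libraries were listed at 164 of 254 mitochondrial sites and at 23212 of 137373 autosomal sites. Among 164 mitochondrial sites with at least 10 reads in each library, the median ratio of replicate 2 to replicate 1 was 0.855, against 0.970 for 23212 autosomal sites. With replicate 2 lower overall (36248 RPM, against 42211 RPM in replicate 1), 1 of 10 mt- genes that averaged 100 RPM or more differed at least 1.5-fold between the libraries. The gene was mt-Tv, higher in replicate 1, and 1.67% of 1614 nuclear genes did so. Scaled to mitochondrial reads, 0 of 10 did. With 2 libraries no test was made, since an exact sign-flip test cannot go below p = 0.5.

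**Figure D5:**
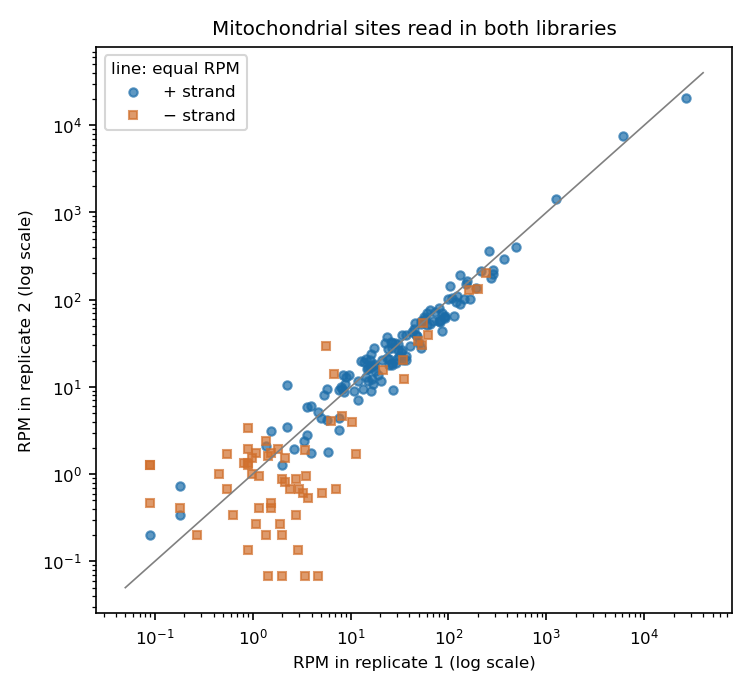
RPM of each mitochondrial site in replicate 2 against replicate 1, both on log axes, for the 194 sites read in both, with + strand sites as circles, − strand sites as squares and a line at equal RPM. The site with most reads had 26825 RPM in replicate 1 and 20420 RPM in replicate 2, and sites of both strands below about 10 RPM include some far from the line.

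Nuclear genes that make and tail mitochondrial RNA were read in the same libraries, in all 3 of them for autosomal genes. Of the tailing and stability genes, Mtpap, the mitochondrial poly(A) polymerase, had 32.9, 24.4 and 20.4 RPM in replicates 1, 2 and 3. Lrpprc, an RNA-binding protein that stabilises mitochondrial mRNAs, had 365, 289 and 456 RPM, its partner Slirp had 98.1, 134 and 148 RPM, and the 2′-phosphodiesterase Pde12, which removes tails, had 38.3, 41.5 and 38.7 RPM. All 5 listed genes of this role had at least 10 RPM.

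Of 11 genes of RNA processing found in the annotation, 9 averaged 10 RPM or more. The highest were Hsd17b10, a subunit of the RNase P that cuts before tRNAs, with 214 and 244 RPM (X-linked, replicates 1 and 2), Tbrg4 (also FASTKD4) with 165, 145 and 166 RPM, and the RNA-granule protein Grsf1 with 106, 126 and 166 RPM. Elac2, which cuts at the tRNA 3′ end, averaged 48.2 ± 12.2 RPM (SD, n = 3). The catalytic RNase P subunit, listed as 1110008L16Rik, averaged 42.4 ± 4.84 RPM.

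Of 9 transcription genes, Tfam, which packages and activates mitochondrial DNA, averaged 55.9 ± 13.8 RPM. The RNA polymerase Polrmt averaged 27.2 ± 2.91 RPM and Mterf4 20.2 ± 5.86 RPM. Among 4 genes listed under decay, the exonuclease Rexo2 averaged 214 ± 54.8 RPM, the helicase Supv3l1 71.5 ± 9.35 RPM and Angel2 18.7 ± 3.42 RPM. Of 6 genes of genome copying, the DNA polymerase Polg averaged 64.9 ± 10.3 RPM, the helicase Twnk 17.7 ± 7.41 RPM and the nuclease Mgme1 12.6 ± 1.96 RPM (SD, n = 3 each). At 10 RPM or more on average were 4 of 9 transcription genes, 4 of 4 genes listed under decay and 3 of 6 genes of genome copying. Every listed gene of these roles that the annotation holds had at least 1 listed site. Some averaged under 1 RPM, among them Tfb2m (0.651 RPM), Mterf1a (0.112 RPM) and Polg2 (0.459 RPM).

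The cell label was checked against marker genes. Of 10 ES cell markers, 7 averaged 10 RPM or more, with Nanog at 723 ± 133 RPM and Pou5f1 at 102 ± 16.1 RPM, while Dppa5a was at 0.0673 RPM. Of 8 fibroblast markers, for feeder cells, 1 did, Thy1 at 84.4 ± 37.1 RPM (SD, n = 3), and Col1a1 averaged 2.27 RPM.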

How the data were processed

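Poly(A) sites of 3 F121-9 libraries were taken as deposited. Deposited site values were read as RPM because they fit that unit, there being no header line. Whole reads were recovered for 100% of values within 0.01 reads. The denominators were 11085428, 14855484 and 14064461 reads. The deposited fraction of libraries with a read at the site was not used further. Alignments were to mm10 with GENCODE M21, per the text files deposited with the libraries, while no aligner or site caller is named in the sources used here. Reads may not be independent molecules.

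Sites were placed by named position and strand in the 37 mt- genes, or up to 10 bases past a gene's end. All-gene ratios of end to body used genes with a mean of at least 50 reads, limma 3.58.1 on log2(RPM + 0.05) and Benjamini-Hochberg adjustment over all genes, in R 4.3.3, tested on simulated data. edgeR 4.0.16 on recovered reads was the alternative. Nuclear copies came from blastn 2.17.0 at 90% identity or more and 100 bases or longer. Other steps used pandas 2.3.3. Named were all 37 mt- genes, with values for mRNAs, rRNAs and tRNA genes averaging 10 RPM or more, their leading sites, the 10 highest other sites and the 3 highest nuclear genes of each role. Members and lists were chosen with earlier results of these data known. Samples form 1 group, so no contrast between conditions was made. Alternatives are in the closing section.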

Additional observations from a re-analysis of the deposited data

How the results depend on the processing

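No paired analysis was possible because the series holds 1 group. Leaving out either replicate leaves 1 library, a value with no test: the mitochondrial share was 3.98% to 4.61%, the + strand share 97.4% to 97.8%, reads within 10 bases of an annotated end 3.83% to 4.55% and at tRNA borders 4.76% to 5.64%. AATAAA was upstream of 4.83% to 5.57% of reads, A-rich sequence after 0.164% to 0.243%, and nuclear copies at 1.98% to 2.03%. The settings without the 2 most-read sites, with 30 bases, with intervals and with exact copies were chosen after seeing the data. Without the 2 most-read sites, the + strand share was 89.4%, tRNA borders held 23.1% in place of 5.20% (9.19% also without the end of mt-Rnr2), AATAAA 23.1% in place of 5.20% and A-rich sites 0.9097% in place of 0.204%. Reads near annotated ends, 4.19% within 10 bases, were 65.2% within 25 bases, 82.8% within 30 bases and 82.4% where the interval covers the end, since the 2 most-read sites enter. With signals sought at bases 10 to 30, AATAAA preceded 0.882%. A looser A-rich rule gave 1.43%, or 6.38% without the 2 most-read sites, against 3.90% of autosomal reads. With 50 bases allowed past a gene's end in place of 10, mt-Tq had 58.2 and 56.5 RPM in place of 2.89 and 2.15 RPM. Reads at sites with a nuclear copy were 2.01% as planned, with 100 bases at 98% identity. They were 80.1% with 50 bases, 1.34% with 150 bases, 4.497% at 95% identity and 0.167% at 100% identity. With exact copies of 50, 100 and 150 bases they were 60.4%, 0.151% and 0%. Past 2-fold, or scaled to mitochondrial reads, 0 of 10 mt- genes differed between the libraries in place of 1. Called towards the end were 0 mRNA and rRNA genes at 10 bases and 2 at 50 bases in place of 1, with mt-Nd4 at -10.06 and mt-Cytb at 4.91 (log2) there. Of all 9702 genes, limma called 6054 towards the end and 1588 towards the body, and edgeR on recovered reads 5649 and 1428. mt-Nd6 lost its call with edgeR (adjusted p = 0.0545), and mt-Nd3 gained one with a pseudocount of 0.5 RPM (limma adjusted p = 0.0179). Exact ends are limited by the width of a site's interval, with a median of 25.5 bases.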
